A study of Mus musculus with 4 samples.

Results

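The genes described here are 10 genes of the first stages of granulocyte development: *Mpo*, *Elane*, *Prtn3*, *Ctsg*, *Ms4a3*, *Cebpa*, *Cebpb*, *Cebpe*, *Gfi1* and *Csf3r*. They were chosen by name for their known roles, with earlier results of these data known, as 10 of the 40213 gene symbols listed in the deposited files. All 10 had enough counts to be tested. They were measured by bulk RNA-seq of CD24+ emergency progenitors (EPs), which are CD11c+CD117+ cells that Flt3L expands and that can become type 1 conventional dendritic cells (cDC1s). There were 2 libraries labelled WT, from TopBP1 fl/fl littermates, and 2 labelled TopBP1cKO, from TopBP1 fl/fl mice that also carry CD11c-cre, so the floxed alleles were shared by both groups and Cre was expected only in cells that use the CD11c promoter. All groups were young adult mice that had been given Flt3L-Ig (10 μg per injection, into the peritoneum) at day 0 and again at day 3, and their splenic EPs were isolated by flow sorting at day 9. Neither the labels nor the methods state whether a library came from 1 mouse or a pool, so the P values measure the spread between these libraries only.

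Azurophil (primary) granules are the first granules that a granulocyte precursor makes. They are filled at the promyelocyte stage with myeloperoxidase (*Mpo*) and the serine proteases neutrophil elastase (*Elane*), proteinase 3 (*Prtn3*) and cathepsin G (*Ctsg*), and their transcripts fall again before the specific and gelatinase granules are made. C/EBPα (*Cebpa*) is needed to enter this pathway, C/EBPε (*Cebpe*) for the later granules and C/EBPβ (*Cebpb*) for granulopoiesis in emergencies. GFI1 (*Gfi1*) is a transcriptional repressor that favours granulocytes, whereas IRF8 favours monocytes and cDC1s. *Csf3r* encodes the G-CSF receptor, and *Ms4a3* encodes a membrane protein of granulocyte and monocyte progenitors.

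Library totals ran from 14561583 to 15193831 counts. Counts of *Topbp1*, which the Cre is meant to delete, were 1102 and 1143 in WT, 773 in the library labelled TopBP1cKO 1 and 1279 in the library labelled TopBP1cKO 2. Its count over the whole gene was therefore not reduced in TopBP1cKO 2, and both libraries of this group are called by their labels. TopBP1cKO 2 also stood apart from the other libraries. The transcripts of the mitochondrial genome held 4.86% of its counts, against 3.03% to 3.29% elsewhere, and 10 cell cycle genes summed to 1814 CPM in it, against 513 to 669 CPM elsewhere. The genes of the gate were well covered in every library, with 8776 to 10511 counts for *Itgax* (CD11c), 5916 to 7181 for *Kit* (CD117) and 11686 to 14001 for *Cd24a*. *Xcr1*, whose protein marks mature cDC1s, was present too, at 9540 to 11385 counts. CPM values are counts scaled to library size with the TMM factors of edgeR.

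The promoters of these genes are shown first, because the study concerns the transcription factor PU.1. RefSeq promoter sequence (GRCm38.p6, an older build than the GRCm39 of the deposited counts) was found for 9 of the 10 genes, all but *Cebpe*. The letters GAGGAA, a core to which PU.1 can bind, or the reverse complement TTCCTC stood within 250 bases upstream of the gene start in 5 of the 9, namely *Mpo*, *Elane*, *Prtn3*, *Ctsg* and *Csf3r*. Of all 32851 promoters of the table, 23.3% held the same letters. The 120 bases around the match are given 5′ to 3′ on the strand of the gene, with the match in capitals.
*Elane*, chr10:79886192-79886311, plus strand: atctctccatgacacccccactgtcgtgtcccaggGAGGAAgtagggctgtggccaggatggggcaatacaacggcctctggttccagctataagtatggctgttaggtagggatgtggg
*Prtn3*, chr10:79879547-79879666, plus strand: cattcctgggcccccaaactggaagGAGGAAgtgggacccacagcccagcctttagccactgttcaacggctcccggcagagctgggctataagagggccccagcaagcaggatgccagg
*Csf3r*, chr4:126024539-126024658, plus strand: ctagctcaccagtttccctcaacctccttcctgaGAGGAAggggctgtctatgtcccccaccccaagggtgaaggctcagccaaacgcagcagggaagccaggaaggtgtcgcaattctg
*Mpo*, chr11:87793534-87793653, plus strand: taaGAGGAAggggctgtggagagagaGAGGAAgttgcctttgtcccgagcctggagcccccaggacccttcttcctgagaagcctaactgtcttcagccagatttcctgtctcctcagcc
*Ctsg*, chr14:56102705-56102824, minus strand: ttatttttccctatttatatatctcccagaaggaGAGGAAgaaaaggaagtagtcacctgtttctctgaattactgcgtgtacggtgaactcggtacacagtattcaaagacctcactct
In *Elane*, *Prtn3* and *Csf3r* the match began 85, 95 and 86 bases before the gene start. In *Mpo* there were 2 matches, 247 and 224 bases before it, and in *Ctsg* 1, at 216 bases. Of 3 other motifs searched on both strands in the same windows, TTGCNNAA (C/EBP) stood in 1 of the 9 promoters (*Gfi1*; 9.56% of all promoters), TGTGGT (RUNX) in 1 (*Ctsg*; 14.05%) and AAATCA (GFI1) in 0 (12.4%). Such a match describes the letters only, and no binding was measured in these libraries. *Ms4a3* and *Gfi1*, which share the library order of *Mpo* described below, held no GAGGAA match. *Csf3r*, which held a match, did not share that order. A link between the letters and the library order was not tested.

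Compared per length of transcript, *Mpo* had the highest level of the 10 genes in WT EPs, with 217 and 154 CPM per kb. *Elane* followed with 99.96 and 66.8, then *Prtn3* with 48.3 and 37.4 and *Ctsg* with 38.8 and 21.6 CPM per kb. The levels of *Prtn3* and *Ctsg* overlapped between the 2 WT libraries. *Ms4a3* (16.1 and 10.9 CPM per kb) and *Cebpa* (12.2 and 12.04) overlapped too. *Cebpb*, *Cebpe* and *Csf3r* lay between 3.05 and 4.75 CPM per kb and could not be ordered beyond their spread. *Gfi1* was lowest, with 1.11 and 0.995 CPM per kb. In the libraries labelled TopBP1cKO 1 and TopBP1cKO 2, *Mpo* (318 and 70.9 CPM per kb) was again above *Elane* (132 and 34.8), and *Elane* above *Prtn3* (77.6 and 16.03) and *Ctsg* (53.98 and 15.4), which were close to each other in TopBP1cKO 2.

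**Figure D1:**
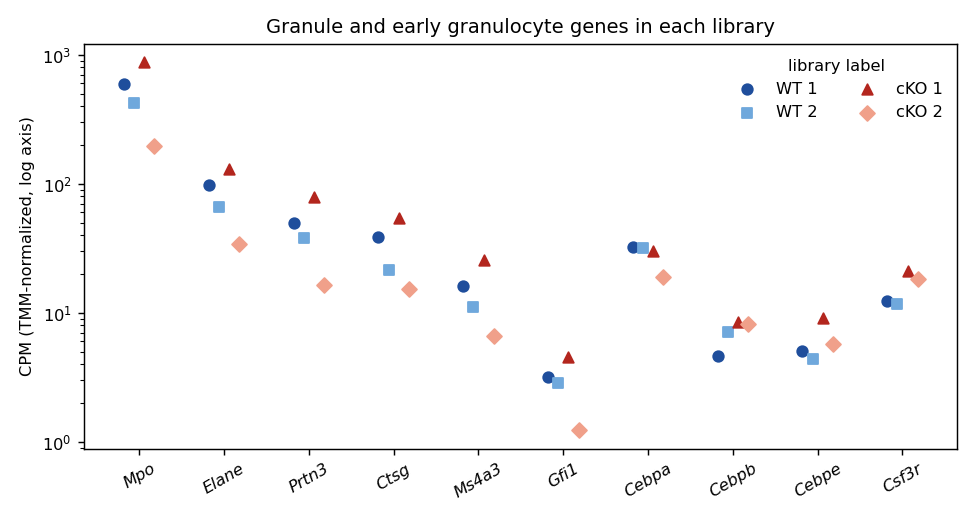
Expression of the 10 genes as TMM-normalized CPM on a log axis, 1 point per library. For *Mpo*, *Elane*, *Prtn3*, *Ctsg*, *Ms4a3* and *Gfi1* the library labelled TopBP1cKO 1 is highest and TopBP1cKO 2 lowest, with both WT libraries between them, whereas *Csf3r*, *Cebpb* and *Cebpe* are above both WT libraries in both.

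None of the 4 genes of primary granule proteins passed the test between the groups, and the 2 libraries labelled TopBP1cKO lay on either side of WT. *Mpo* had 8464 and 6391 counts in the WT libraries, 13311 in TopBP1cKO 1 and 3014 in TopBP1cKO 2. Mean CPM was 510 ± 124 (SD, n = 2) for WT against 534 ± 480 (SD, n = 2) for TopBP1cKO by label. The log2 fold change was 0.066 (SE 0.56, edgeR FDR 0.978), with a 95% interval from −1.23 to 1.36, so that a change of more than 2-fold in either direction lies within it. *Elane* had 1392 and 993 counts in WT, 1973 in TopBP1cKO 1 and 529 in TopBP1cKO 2 (log2 fold change −0.0027, SE 0.51, FDR 0.998). *Prtn3* had 701 and 579 counts in WT, 1212 in TopBP1cKO 1 and 254 in TopBP1cKO 2 (log2 fold change 0.13, SE 0.57, FDR 0.962). For *Ctsg* the counts were 550 and 327 in WT, 824 in TopBP1cKO 1 and 238 in TopBP1cKO 2 (log2 fold change 0.20, SE 0.51, FDR 0.925). All 4 genes thus had the same order of libraries, from TopBP1cKO 1 through WT 1 and WT 2 to TopBP1cKO 2.

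*Ms4a3* and *Gfi1* took the same order. *Ms4a3* had 230 and 167 counts in WT, 389 in TopBP1cKO 1 and 102 in TopBP1cKO 2 (log2 fold change 0.24, SE 0.53, FDR 0.911). *Gfi1* was scarce, with 45 and 43 counts in WT, 69 in TopBP1cKO 1 and 19 in TopBP1cKO 2 (log2 fold change −0.066, SE 0.55, FDR 0.978). In all, 6 of the 10 genes were highest in TopBP1cKO 1 and lowest in TopBP1cKO 2, as were 9.18% of all 12393 genes tested, and these 6 also had WT 1 above WT 2, as did 3.82% of all genes. The distance between the 2 libraries labelled TopBP1cKO was 4.48-fold for *Mpo* (95% exact interval 4.31 to 4.66), 3.79-fold for *Elane* (3.44 to 4.17), 4.84-fold for *Prtn3* (4.23 to 5.57) and 3.51-fold for *Ctsg* (3.04 to 4.08). It was 3.87-fold for *Ms4a3* (3.10 to 4.86) and 3.69-fold for *Gfi1* (2.19 to 6.49). These intervals cover counting error only and compare 2 libraries, not 2 conditions. Only 1.0% of all genes tested were at least 3 times higher in TopBP1cKO 1 than in TopBP1cKO 2. Between the WT libraries the same 6 genes differed by 1.12-fold (*Gfi1*) to 1.80-fold (*Ctsg*). In bulk RNA, fewer cells of a type and less RNA per cell cannot be told apart.

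Within a library the 6 genes kept close proportions to each other. *Elane* had 16.4 and 15.5 counts per 100 *Mpo* counts in the WT libraries, 14.8 in TopBP1cKO 1 and 17.6 in TopBP1cKO 2. *Prtn3* had 8.28 and 9.06 in WT, 9.11 in TopBP1cKO 1 and 8.43 in TopBP1cKO 2. The highest of the 4 libraries was 1.18 times the lowest for *Elane*, 1.10 times for *Prtn3*, 1.54 times for *Ctsg*, 1.30 times for *Ms4a3* and 1.30 times for *Gfi1*. For the remaining genes the proportion to *Mpo* moved more, by 2.78 times for *Cebpa*, 3.48 times for *Cebpe*, 4.55 times for *Csf3r* and 5.49 times for *Cebpb*, each being highest in TopBP1cKO 2. *Mpo* itself was lowest in TopBP1cKO 2 and spanned 4.48-fold over the libraries. A gene with an unchanged level would therefore show a similar move in this proportion. No test was made of these proportions, which come from the same 4 libraries.

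**Figure D2:**
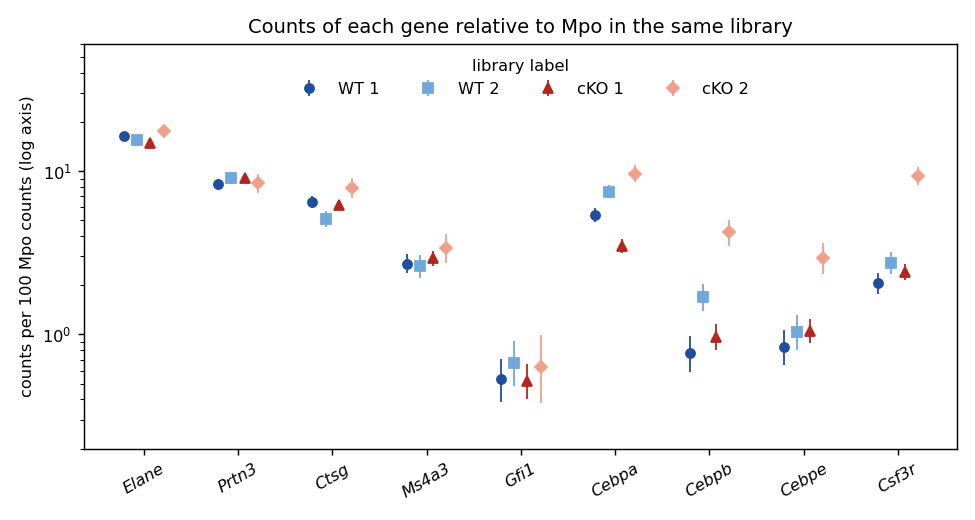
Counts of each of the other 9 genes per 100 *Mpo* counts of the same library, on a log axis, with 95% exact binomial intervals that cover counting error only. *Elane*, *Prtn3*, *Ctsg*, *Ms4a3* and *Gfi1* stay within 1.54 times over the 4 libraries, whereas *Cebpa*, *Cebpb*, *Cebpe* and *Csf3r* stand highest in TopBP1cKO 2, where *Mpo* is lowest.

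The genes whose pattern over the 4 libraries was most like that of the primary granule genes were then listed, by the distance of centred log2 CPM from the mean of *Mpo*, *Elane*, *Prtn3* and *Ctsg*, among 11383 other genes with a mean of at least 20 counts. The nearest 5 were *Tfec* (distance 0.197), *Ms4a3* (0.201), *Ear6* (0.272), *Cst7* (0.403) and *Adgrl4* (0.406), against a median distance of 1.52. *Gfi1* was 7th, at 0.460. *Tfec* encodes a transcription factor of the MiT family and had 31 and 24 counts in WT, 49 in TopBP1cKO 1 and 7 in TopBP1cKO 2. *Cst7*, which encodes the protease inhibitor cystatin F, had 92 and 59 counts in WT, 154 in TopBP1cKO 1 and 44 in TopBP1cKO 2. *Ear6* belongs to the eosinophil-associated ribonucleases. It had 87 and 76 counts in WT, 172 in TopBP1cKO 1 and 38 in TopBP1cKO 2. *Cebpa* was in place 279, *Cebpe* in 1655, *Csf3r* in 7227 and *Cebpb* in 9339. With 4 libraries this likeness is a description only.

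Most of the eosinophil markers tested moved with the primary granule genes. *Epx*, the eosinophil peroxidase, had 424 and 370 counts in WT, 1109 in TopBP1cKO 1 and 208 in TopBP1cKO 2. *Prg2*, which encodes the major basic protein, had 1044 and 938 counts in WT, 2217 in TopBP1cKO 1 and 333 in TopBP1cKO 2. Of 5 eosinophil markers tested, 4 were highest in TopBP1cKO 1 and lowest in TopBP1cKO 2, as were 9.18% of all genes, and none passed FDR < 0.05. The exception was *Siglecf*, with 19 and 14 counts in WT, 32 in TopBP1cKO 1 and 18 in TopBP1cKO 2. *Ccr3* was too scarce to be tested, with 4 and 5 counts in WT, 4 in TopBP1cKO 1 and 2 in TopBP1cKO 2. The list of 6 markers summed to 114 and 96.5 CPM in WT, 239.7 CPM in TopBP1cKO 1 and 39.8 CPM in TopBP1cKO 2, none of its genes being at 0 throughout. The part of eosinophil RNA in the values of the primary granule genes was not tested.

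The 3 C/EBP factors did not take the library order of the primary granule genes. *Cebpa* came nearest to their pattern (place 279 among 11383 genes) and was, like them, lowest in TopBP1cKO 2. *Cebpa* had 455 and 478 counts in WT, 463 in TopBP1cKO 1 and 291 in TopBP1cKO 2. Mean CPM was 31.9 ± 0.372 (SD, n = 2) for WT against 24.6 ± 8.18 (SD, n = 2) for TopBP1cKO by label. The groups did not overlap, but TopBP1cKO 1 lay close to WT, at 30.4 CPM against 31.6 CPM in WT 2, and the log2 fold change (−0.37, SE 0.22, FDR 0.597) did not pass the test. *Cebpb* had 65 and 108 counts in WT and 129 and 127 in the libraries labelled TopBP1cKO (log2 fold change 0.50, SE 0.28, FDR 0.568). *Cebpe* had 71 and 66 counts in WT, 140 in TopBP1cKO 1 and 88 in TopBP1cKO 2 (log2 fold change 0.66, SE 0.31, FDR 0.495). Both libraries labelled TopBP1cKO were above both WT libraries for *Cebpb* and *Cebpe*, yet neither passed the test.

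*Csf3r* was the member that differed most in proportion to its error. It had 174 and 176 counts in WT, 323 in TopBP1cKO 1 and 282 in TopBP1cKO 2. Mean CPM was 11.97 ± 0.460 (SD, n = 2) for WT against 19.7 ± 2.10 (SD, n = 2) for TopBP1cKO by label, and the groups did not overlap. The log2 fold change was 0.72 (SE 0.18, 95% interval 0.30 to 1.14), with an unadjusted P value of 0.0044 in the quasi-likelihood test of edgeR, but it did not pass FDR < 0.05 over all genes tested (FDR 0.307). Its log2 fold change ran from 0.61 to 0.82 with each library left out in turn. *Csf3r* therefore had both libraries of the group on the same side of WT, unlike *Mpo*, *Elane*, *Prtn3*, *Ctsg*, *Ms4a3* and *Gfi1*.

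Over the 10 genes, 0 passed FDR < 0.05 in the quasi-likelihood test of edgeR, against 0.105% of all genes tested (0.0807% higher and 0.0242% lower). At an unadjusted P value below 0.05 there was 1, *Csf3r*, against 10.7% of all genes. Likelihood ratio testing in edgeR, the Wald test of DESeq2 and limma-voom also gave 0 at FDR < 0.05. In 3 of the 10, *Csf3r*, *Cebpb* and *Cebpe*, both libraries labelled TopBP1cKO lay above both WT libraries, as in 22.8% of all genes, and in 1, *Cebpa*, they lay below, as in 20.8%. The median log2 fold change was 0.16 over the 10 genes and 0.0084 over all genes tested, and the median SE was 0.51 against 0.18. The lowest and highest libraries were a median of 3.60-fold apart for the 10 genes and 1.35-fold for all genes tested.

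The calls depended on which of the 2 libraries labelled TopBP1cKO was used. With TopBP1cKO 1 left out, 7 of the 10 genes passed FDR < 0.05, of which *Mpo*, *Elane*, *Prtn3*, *Ctsg*, *Ms4a3* and *Cebpa* were lower than in WT and *Csf3r* was higher. In that fit 20.5% of all genes passed (11.2% higher and 9.33% lower). With TopBP1cKO 2 left out, 6 of the 10 passed, namely *Mpo*, *Elane*, *Prtn3*, *Ctsg*, *Ms4a3* and *Csf3r*, all of them higher than in WT, and 1.74% of all genes passed (1.11% higher and 0.633% lower). With WT 1 left out, 0 of the 10 passed in edgeR, against 0.0929% of all genes (0.0697% higher and 0.0232% lower), and with WT 2 left out 0 passed, against 0.00781%, all of it higher. The log2 fold change of *Mpo* was −1.39 (SE 0.16, FDR 4.4e-06) without TopBP1cKO 1 and 0.77 (SE 0.14, FDR 0.00307) without TopBP1cKO 2. For *Elane* the values were −1.26 (SE 0.18, FDR 7.3e-05) and 0.65 (SE 0.16, FDR 0.0338). In these fits the lone library is assumed to vary as the WT libraries do, so the FDR values do not cover the spread within the group. The log2 fold change of *Csf3r* was 0.61 without TopBP1cKO 1 and 0.82 without TopBP1cKO 2. *Cebpb* and *Cebpe* were also above 0 in both fits, and *Cebpa* was below 0 in both. Both fits use the same WT libraries, so they are not independent of each other.

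**Figure D3:**
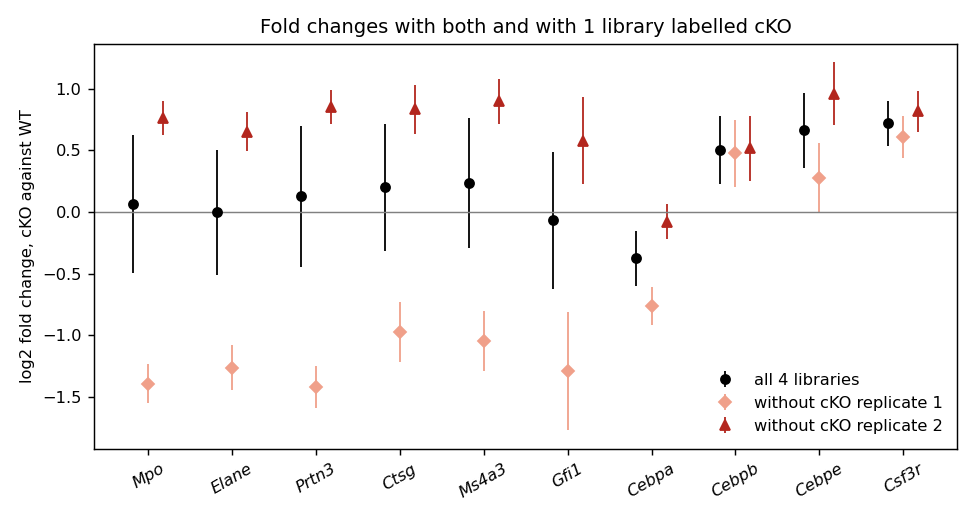
Log2 fold change of the libraries labelled TopBP1cKO against WT for each gene, with all 4 libraries and with either library labelled TopBP1cKO left out. Bars show the SE of the edgeR fit. *Mpo*, *Elane*, *Prtn3*, *Ctsg*, *Ms4a3* and *Gfi1* change sign between both leave-out fits, whereas *Csf3r*, *Cebpb* and *Cebpe* stay above 0.

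The genes of the later granules were set beside the primary granule genes. Their list was also written with earlier results of these data known, so its counts are a description only. Of 12 genes of specific and gelatinase granules and the S100A8/A9 proteins, all 12 were higher in both libraries labelled TopBP1cKO (22.8% of all genes), and 7 passed FDR < 0.05 in edgeR (0.0807% of all genes in this direction), with a median log2 fold change of 1.49 against 0.0084 over all genes. The 7 became 0 without WT 2 and with each transcript as its own feature, and 12 without TopBP1cKO 1. *Camp*, the cathelicidin, was among those that did not pass, with 741 and 668 counts in WT and 2288 and 1592 in the libraries labelled TopBP1cKO (log2 fold change 1.39, SE 0.19, FDR 0.0948). *Olfm4*, which marks a subset of neutrophils, had 24 and 22 counts in WT and 70 and 102 in the libraries labelled TopBP1cKO (log2 fold change 1.82, SE 0.35, FDR 0.247). Summed over the 12, the later genes held 869 and 813 CPM in WT, 2393 CPM in TopBP1cKO 1 and 2410 CPM in TopBP1cKO 2. The 4 primary granule genes summed to 785 and 548 CPM in WT, 1137 CPM in TopBP1cKO 1 and 261 CPM in TopBP1cKO 2. The ratio of the later to the primary sum was 1.11 and 1.48 in WT, 2.11 in TopBP1cKO 1 and 9.24 in TopBP1cKO 2. On the log2 scale it differed by 1.78 between the groups (exact two-sided permutation p = 0.333, the smallest that 2 against 2 libraries allow). The difference was 0.72 without TopBP1cKO 2 and 2.85 without TopBP1cKO 1.

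Other genes of the pathway, from lists written with earlier results of these data known, are given by their counts. Of 10 further genes of primary granule cargo and processing, 9 were tested and 0 passed FDR < 0.05, with a median log2 fold change of 0.20. At an unadjusted P value below 0.05 there was 1, against 10.7% of all genes. *Prss57*, another serine protease of these granules, had 117 and 69 counts in WT and 140 and 86 in the libraries labelled TopBP1cKO. *Ctsc*, which activates the serine proteases, stood at 0.12 on the log2 scale (SE 0.13, FDR 0.782), and *Srgn*, the proteoglycan that packs them, at −0.15 (SE 0.14, FDR 0.736). *Serpinb1a*, an inhibitor of elastase and cathepsin G, had 209 and 172 counts in WT and 465 and 321 in the libraries labelled TopBP1cKO (log2 fold change 0.97, SE 0.24, FDR 0.307). *Bpi* had 0 counts in every library, where a count of 0 allows up to 3 counts, or 0.194 to 0.212 CPM.

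Of 7 other C/EBP family members and modulators, 5 were tested and 0 passed FDR < 0.05, with a median log2 fold change of −0.20. At an unadjusted P value below 0.05 there was 1, and for this and the next lists the share of all genes was 10.7%. *Trib1*, whose product targets C/EBPα for degradation, was the one with the small P value, with 1064 and 1245 counts in WT and 894 and 696 in the libraries labelled TopBP1cKO (log2 fold change −0.60, SE 0.16, FDR 0.307). *Cebpd* stood at 0.11 (SE 0.22, FDR 0.895). Of 11 partners and opponents of GFI1, 10 were tested and 0 passed. The 1 at an unadjusted P value below 0.05 was *Nab2* (log2 fold change −0.56, SE 0.23, FDR 0.457). *Kdm1a*, the lysine demethylase that GFI1 recruits, stood at −0.12 (SE 0.13, FDR 0.786). *Gfi1b* was too scarce to be tested, at 5 to 9 counts. *Egr2*, which opposes GFI1, had 55 and 78 counts in WT and 51 and 29 in the libraries labelled TopBP1cKO (log2 fold change −0.79, SE 0.38, FDR 0.505). Of 14 genes of G-CSF receptor signalling, 14 were tested and 0 passed, also at an unadjusted P value below 0.05, and their log2 fold changes ran from −0.25 to 0.16. *Stat3*, the main transducer of the receptor, stood at −0.085 (SE 0.11, FDR 0.831) and *Socs3*, its inhibitor, at 0.16 (SE 0.22, FDR 0.830). Of 12 regulators of early myeloid progenitors, 12 were tested and 0 passed, with a median log2 fold change of −0.029. The 3 at an unadjusted P value below 0.05 were *Kit* (log2 fold change −0.30, FDR 0.436), *Csf1r* (0.59, FDR 0.309) and *Gata2* (0.85, FDR 0.407). *Myb*, which acts with C/EBPα in these progenitors, had 544 and 447 counts in WT and 689 and 497 in the libraries labelled TopBP1cKO (log2 fold change 0.19, SE 0.21, FDR 0.783).

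**Figure D4:**
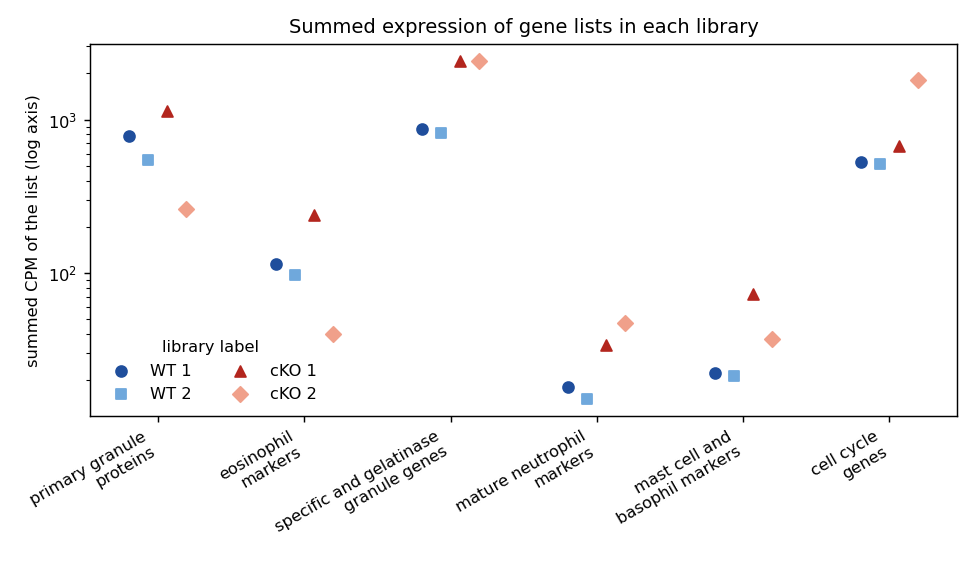
Summed CPM of 6 gene lists in each library, on a log axis, 1 point per library. The primary granule proteins (261 to 1137 CPM) and the eosinophil markers (39.8 to 239.7 CPM) are highest in TopBP1cKO 1 and lowest in TopBP1cKO 2, whereas the specific and gelatinase granule genes are at 2393 and 2410 CPM in these libraries.

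Markers of other cells moved between the libraries as well. Of 7 markers of mature neutrophils, 6 were tested and 0 passed FDR < 0.05 in edgeR (4 at an unadjusted P value below 0.05, against 10.7% of all genes). In 5 of the 6 both libraries labelled TopBP1cKO lay above both WT libraries, as in 22.8% of all genes, and the sum of the list was 14.95 to 18.02 CPM in WT, 33.8 CPM in TopBP1cKO 1 and 47.2 CPM in TopBP1cKO 2. *Ly6g*, which defines mouse neutrophils, had 16 and 13 counts in WT and 49 and 67 in the libraries labelled TopBP1cKO. The 8 markers of mast cells and basophils summed to 21.2 to 22.3 CPM in WT, 72.4 CPM in TopBP1cKO 1 and 37.3 CPM in TopBP1cKO 2, with *Tpsb2* at 0 throughout. The 5 monocyte markers summed to 572 to 603 CPM in WT, 691 CPM in TopBP1cKO 1 and 522 CPM in TopBP1cKO 2. The sums ran from 14.6 to 17.6 CPM for macrophages, 25.6 to 35.2 for B cells, 164 to 206 for pDCs and 8.67 to 12.7 for erythroid cells. For T and NK cells the sum was highest in TopBP1cKO 1 (17.4 CPM) and from 5.62 to 8.28 CPM elsewhere. The part of these cells in the values of the 10 genes was not tested.

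The counts of *Mpo*, *Elane*, *Prtn3*, *Ctsg*, *Ms4a3* and *Cebpe* each came from a single listed transcript. *Csf3r* had 18 listed transcripts, of which 14 were counted in some library and 1 in all 4. *Cebpa* had 5 and *Cebpb* 3, and in each library 1 transcript took the whole count of the gene, but not the same one in all libraries, so only their sums are compared here. *Gfi1* had 2, and again only the sum is compared. The first had 45 and 35 counts in WT, 69 in TopBP1cKO 1 and 0 in TopBP1cKO 2. The other had 0 and 8 counts in WT, 0 in TopBP1cKO 1 and 19 in TopBP1cKO 2. In the reference, 0% of the 31-base stretches of *Elane*, *Ctsg* and *Cebpe* and 7.48% of those of *Prtn3* occurred in another gene, the latter in *Plppr3*, which overlaps *Prtn3* on the opposite strand. *Plppr3* had 35 and 53 counts in WT, 120 in TopBP1cKO 1 and 30 in TopBP1cKO 2, and whether strand was used in counting is not given in the sources used here. For *Mpo* the share was 12.1%, for *Cebpb* 19.6% and for *Csf3r* 23.1%, while it was at most 1.65% for *Ms4a3*, *Cebpa* and *Gfi1*. Exons of *Mpo*, *Cebpa*, *Cebpb* and *Gfi1* also overlap a gene on the opposite strand in the reference.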

How the data were processed

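RNA of 4 libraries of CD24+ splenic EPs (2 WT, 2 labelled TopBP1cKO) was extracted with RNAiso Plus and prepared with the CORALL RNA-seq V2 kit, according to the labels; the methods of the study name another RNA kit. The submitters’ processing notes list fastp, STAR, Salmon and GATK and the build GRCm39, without roles or versions. The authors deposited counts for 137259 RefSeq transcripts, which were treated as estimated counts because Salmon is listed, although all are whole numbers and unnormalized. The rule for reads that match several transcripts is not given in the sources used here.

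Counts were summed per gene symbol, and 12393 of 19815 genes with a count passed filterByExpr. Groups were compared with the quasi-likelihood test of edgeR 4.0.16 (R 4.3.3; TMM), with P values adjusted by Benjamini–Hochberg across the whole table and a threshold of FDR < 0.05. Dividing each log2 fold change by the root of its F statistic gave the SE, and the biological coefficient of variation was 15.2%. The fit was tested on simulated counts, changing 200 of the 12393 genes: 59.5% were recovered at a log2 change of 1 and 93.5% at 2. The genes described here had a median SE of 0.51, against 0.18 over all genes tested. These recovery rates therefore cannot be applied to them. Depths are the library totals; intervals and floors (3 counts) cover counting error only. Libraries were checked for duplicates, and none was found (chi-square per degree of freedom at least 11.9). DESeq2 1.42.0 and limma 3.58.1 served as alternatives. Lengths, overlaps and shared sequence came from GENCODE M21 and promoters from RefSeq (both GRCm38), by name. Likeness used log2(CPM + 0.5).

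The genes and lists were chosen with earlier results of these data known. Genes named are the 10 genes, *Topbp1*, list genes where their list is described, the 5 genes of most similar pattern and the tested neighbours of *Elane*, *Prtn3* and *Ctsg*.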

Additional observations from a re-analysis of the deposited data

How the results depend on the processing

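The count of the 10 genes at FDR < 0.05 was 0 under each alternative that kept all 4 libraries, and ran from 0 to 7 with each library left out in turn. Over all genes, 10 were higher and 3 lower at FDR < 0.05. The Wald test of DESeq2 gave 106 and 31, and likelihood ratio testing in edgeR 180 and 54. They came to 395 and 109 with a replicate block and to 0 and 0 with each transcript as its own feature. Upper quartile normalization left 0 lower, and no filter on low counts gave 16 higher. They ran from 1 to 1432 higher and from 0 to 1193 lower with a library left out. Of the specific and gelatinase granule genes, 11 passed in the likelihood ratio test, 12 with the replicate block, 0 by transcript and 0 to 12 with a library left out. The sources do not say that the replicate numbers pair the libraries. Over all genes tested, the deviations of same-numbered libraries had a correlation of −0.0147. With 2 libraries per group this cannot decide whether they were paired, so the block values are given here only. For these shifts the cause was not tested.

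The direction turned for *Elane* with upper quartile normalization (0.013), for *Mpo* (−0.29), *Prtn3* (−0.27), *Ctsg* (−0.0030) and *Ms4a3* (−0.044) with limma-voom, and for *Mpo* (−0.28), *Prtn3* (−0.23) and *Ms4a3* (−0.0036) with the replicate block, none of them at FDR < 0.05. With each library left out in turn, log2 fold changes ran from −1.39 to 0.77 for *Mpo*, −1.26 to 0.65 for *Elane*, −1.42 to 0.85 for *Prtn3*, −0.97 to 0.83 for *Ctsg*, −1.05 to 0.90 for *Ms4a3*, −1.29 to 0.58 for *Gfi1*, −0.76 to −0.078 for *Cebpa*, 0.22 to 0.85 for *Cebpb*, 0.28 to 0.96 for *Cebpe* and 0.61 to 0.82 for *Csf3r*. The log2 ratio of later to primary granule genes stayed from 1.73 to 1.80 without TMM or without any one primary gene, and ran from 0.72 to 2.85 with a library left out.

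*Gfi1* had the fewest counts of the 10 genes, from 19 to 69 per library. With 2 libraries per group, the 95% intervals of the 4 primary granule genes reached at least 0.99 below 0 and 1.18 above 0 on the log2 scale, so changes of that size were not detectable at this spread.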

Other observations

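*Elane* and *Prtn3* lie next to each other, and *Ctsg* lies in a cluster of mast cell proteases and granzymes (RefSeq gene order, GRCm38.p6). Of the 6 tested genes nearest to *Elane* and *Prtn3*, *Plppr3*, *Ptbp1*, *E130317F20Rik*, *Med16*, *R3hdm4* and *Arid3a* had log2 fold changes of 0.71, 0.29, 0.0099, −0.050, −0.17 and −0.069, with none at FDR < 0.05 in edgeR. *Plppr3* and *Med16* were highest in TopBP1cKO 1 and lowest in TopBP1cKO 2, as *Elane* and *Prtn3* were, but with WT 2 above WT 1. *Med16* had 428 and 489 counts in WT, 552 in TopBP1cKO 1 and 375 in TopBP1cKO 2.

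*Mcpt8*, a serine protease of basophils that lies 2 genes from *Ctsg*, had 62 and 83 counts in WT, 316 in TopBP1cKO 1 and 213 in TopBP1cKO 2. Its log2 fold change was 1.80 (SE 0.27, FDR 0.106), so it did not pass the test, although both libraries labelled TopBP1cKO were above both WT libraries. The other 5 tested genes nearest to *Ctsg* lay further off, because untested genes were passed over. *Gm5801*, *Sdr39u1*, *Gzmb*, *Cenpj* and *Parp4* were 7, 11, 15, 23 and 24 genes away. Their log2 fold changes were 0.48, 0.024, 0.23, 0.41 and −0.16, with none at FDR < 0.05 in edgeR. *Prss34*, a basophil protease from the list of mast cell and basophil markers and not a neighbour of *Ctsg*, had 122 and 123 counts in WT, 457 in TopBP1cKO 1 and 185 in TopBP1cKO 2 (log2 fold change 1.32, SE 0.39, FDR 0.346).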
